A study of Mus musculus with 6 samples.

Results

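Chemokines are small secreted proteins that steer leukocytes, and they act through G protein-coupled receptors on the cells they attract. The genes described here are the protein-coding rows of the count table whose symbols begin with Ccl, Cxcl, Ccr or Cxcr followed by a number. There were 52 of them among 43346 genes, 35 ligands and 17 receptors. They were measured by RNA-seq in 6 femur libraries from 4-month-old C57BL/6 mice, an inbred strain. In the radiated group (n = 3 libraries) the right femur received focal, image-guided radiation in a single session of 24 Gy (gray, the unit of absorbed dose), at 6.6 Gy per minute and over 5 mm of the distal metaphysis. In the non-radiated group (n = 3), called control below, the same piece came from the left femur of animals whose right leg was radiated. Both groups thus come from mice exposed on one side, and no library is from an unexposed animal. Both were collected on day 21, before the bone loss that was seen at day 28, and homogenized after muscle removal, and the labels name no step that took out the marrow.

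The names CC and CXC refer to the spacing of the first conserved cysteines of the ligand. Inflammatory ligands are induced by interferons or by NF-kappa B and recruit monocytes, neutrophils or activated T cells. Homeostatic ligands are made constantly and place cells within a tissue. In bone marrow the best-known pair is Cxcl12, made by stromal cells, and its receptor Cxcr4, which retains stem cells, B cell precursors and neutrophils. Release of neutrophils from marrow is promoted by Cxcr2 and its ligands.

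Total counts ran from 34034251 to 48708383 per library. In control library 2 a single row, AY036118, held 32.9% of the counts, against 2.11% to 5.61% for the highest row of each other library. Values are given as CPM, edgeR's counts scaled to an effective library size by the trimmed mean of M-values (TMM). A gene was called when its Benjamini-Hochberg adjusted p, from edgeR's quasi-likelihood test over all genes tested, was under 0.05. The labels do not state that the libraries are separate animals, so the p-values measure the spread between these samples, which may be technical. All 91 marker genes of 13 cell types examined were detected in every library, including those of bone (Bglap, Dmp1), marrow blood cells and stroma.

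Among the 35 ligands of the symbol rule, most of the RNA in both legs was Cxcl12. Per kilobase of gene length, Cxcl12 stood at a mean of 115 CPM over the 6 libraries, followed by Ccl6 at 41.0, Cxcl14 at 15.4 and Ccl9 at 11.1. The next ligand, Ccl5, stood at 2.78 CPM per kilobase. As a share of the summed ligand level per kilobase, Cxcl12 made up 58.1%, 59.1% and 60.2% of it in the controls (libraries 1, 2 and 3 in order), and 51.6%, 51.9% and 52.7% in the radiated ones. The share among these ligands was thus lower in each radiated library than in any control one. The chemokines Ppbp and Pf4 fall outside the symbol rule, and a share that includes them was not computed. Their levels are given in CPM and not per kilobase, so they cannot be set beside the levels above. The ranking holds among the ligands of the symbol rule and does not place Ppbp and Pf4. Ppbp was at 415 to 474 CPM in control and 136 to 170.1 CPM in radiated libraries. Pf4 was at 119.5 to 133 CPM in control and 42.0 to 50.0 CPM in radiated libraries. Among receptors, Cxcr4 led with 86.8 CPM per kilobase, before Cxcr2 at 29.2, Ccr2 at 21.4, Ccr1 at 18.2 and Ccr3 at 8.71. Cxcr4 held 46.1% to 47.9% of the summed receptor level in the control libraries and 49.3% to 51.7% in the radiated libraries.

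**Figure D1:**
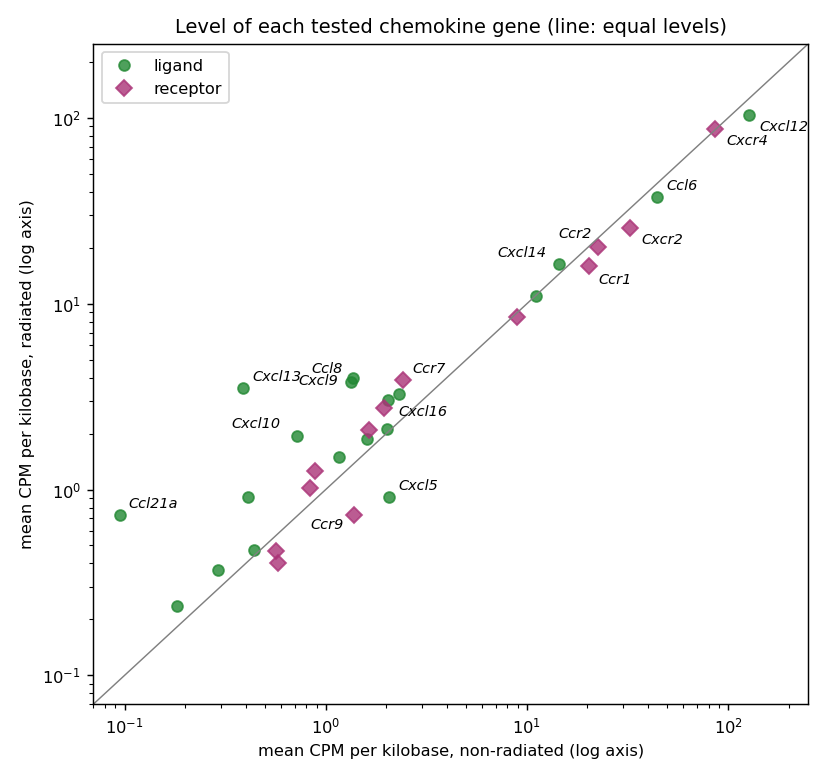
Mean CPM per kilobase of 32 of the 33 tested chemokine genes in control (non-radiated, x axis) and radiated (y axis) femur, both on log axes, with ligands as circles and receptors as diamonds. Cxcl13, Cxcl9, Ccl8 and Cxcl10 lie furthest above the line of equal levels among the called genes, Cxcl5 and Ccr9 lie below it, and the most abundant genes lie near it.

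Of the 52 genes 33 passed the filter on low counts, and 10 of these were called, 6 higher and 4 lower in radiated femur. Over all 18757 genes tested 7.80% were called, 4.56% as higher and 3.24% as lower. Among 19 tested ligands, Cxcl13, Cxcl9, Cxcl10, Ccl8 and Cxcl16 rose and Cxcl5 fell. Among 14 tested receptors, Ccr7 rose and Ccr9, Ccr1 and Cxcr2 fell. Radiated and control values were fully separate for 17 of the 33 genes, 11 higher and 6 lower, against 25.9% of all genes tested, 14.4% higher and 11.5% lower. The median log2 fold change was 0.35 for the tested ligands and -0.03 for the tested receptors, and 0.00 for all genes. Ccl2, Ccl21a and Cxcl2 reached the count cutoff in fewer than 3 control libraries, so they entered the test partly or wholly through the radiated libraries. With the replicate number as a block 11 chemokine genes were called, 6 higher and 5 lower, where 8.90% of all genes were called, 5.51% as higher and 3.39% as lower. With no filter, 50 genes were tested and 17 were called, 11 higher and 6 lower, where 7.20% of all genes were called. With library totals in place of TMM the median of all genes moved by 0.19 on the log2 scale, and 8 chemokine genes were called, 7 higher and 1 lower, where 5.33% of all genes were called.

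**Figure D2:**
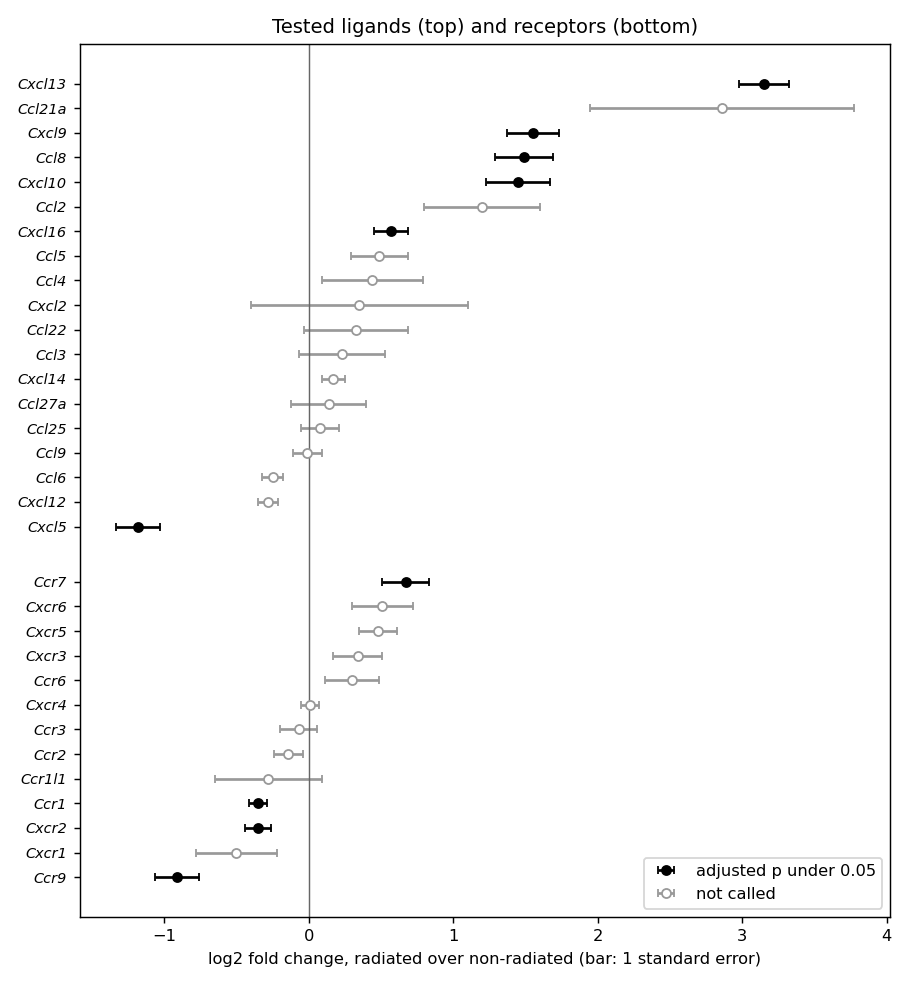
Log2 fold change (radiated over control, x axis) with 1 standard error for the 19 tested ligands and 13 of the 14 tested receptors, filled where the edgeR adjusted p was under 0.05. Cxcl13 stands at 3.15 with a short bar, whereas Ccl21a at 2.86 has a standard error of 0.91 and was not called.

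Cxcl13, which draws B cells and follicular T cells through the receptor Cxcr5, changed most among the called genes. It was at 0.411, 0.439 and 0.519 CPM in the 3 controls, and at 4.17, 3.95 and 4.21 CPM in the 3 radiated libraries. The groups were far apart and each was tight, with means ± SD of 0.457 ± 0.0559 and 4.11 ± 0.141 CPM (n = 3 each). The rise was 8.89-fold (log2 fold change 3.15 ± 0.17 SE, adjusted p 1.43e-05 by edgeR), and it was called in each of 14 settings. Its receptor Cxcr5 was at 5.76, 4.59 and 6.14 CPM in control and 7.68 to 8.08 CPM in radiated libraries, without overlap, but was not called (log2 fold change 0.48 ± 0.13 SE, adjusted p 0.0576 by edgeR). All 8 B cell markers were called higher, with a summed level of 436.5 to 473.6 CPM in control and 701.9 to 846.5 CPM in radiated libraries, and their part in the values of Cxcl13 and Cxcr5 was not tested. In whole bone, more cells of a type and more RNA per cell cannot be told apart.

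Cxcl9 and Cxcl10, the interferon-inducible ligands of Cxcr3 on activated T and NK cells, rose together. They lie in one stretch of chromosome 5, Cxcl9 (ENSMUSG00000029417) at chr5:92321331-92328079 and Cxcl10 (ENSMUSG00000034855) at chr5:92346638-92348889. Cxcl9 was at 3.21, 3.95 and 4.70 CPM in control and 13.6, 11.9 and 9.30 CPM in radiated libraries 1, 2 and 3. Every radiated library was above every control one, and radiated library 1 was highest. The rise was 2.93-fold (log2 fold change 1.55 ± 0.18 SE, adjusted p 0.00113 by edgeR). For Cxcl10 the control libraries held 1.01, 1.12 and 1.13 CPM and the radiated libraries 3.28, 3.52 and 2.11 CPM. Radiated library 3 was the lowest of its group and still above all control ones, and the rise was 2.72-fold (log2 fold change 1.45 ± 0.22 SE, adjusted p 0.00487 by edgeR). Both were called in each of 14 settings. Cxcl10 overlaps Art3 on the opposite strand, which itself rose from a mean of 1.47 to 3.62 CPM (log2 fold change 1.30, edgeR adjusted p 0.0156). The kit was stranded, but whether the counting used strand is not stated, so reads of the pair may not have been told apart. Cxcl11, the other ligand of this receptor, is listed as a polymorphic pseudogene and so is outside the 52 genes. It had 1, 0 and 0 counts in control and 1, 2 and 0 counts in radiated libraries.

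Cxcr3, the receptor, was at 2.44, 2.99 and 3.11 CPM in control and 4.28, 3.28 and 3.32 CPM in radiated libraries. These did not overlap, but the difference was not called (log2 fold change 0.34 ± 0.17 SE, adjusted p 0.277 by edgeR). Of 10 T and NK cell markers 1 was called, where 7.80% of all genes tested were called. It was the kinase Lck, which was higher (log2 fold change 0.49, edgeR adjusted p 0.0108). The summed level of that list was 87.8 to 95.9 CPM in control and 96.4 to 108.6 CPM in radiated libraries.

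The bases upstream of the start of Cxcl9, Cxcl10, Cxcl13 and Ccl8, the 4 ligands with the largest rises among those called, are shown to let their promoters be compared. The sequences are from RefSeq (GRCm38.p6), 250 bases each, 5′ to 3′ along the gene's strand. Capitals mark matches to 3 motifs searched on both strands: the interferon-stimulated response element (GAAA and again GAAA with any 2 bases between), the gamma-activated site (TTC and GAA with any 3 bases between) and the kappa B consensus.
Cxcl9, upstream window at chr5:92328080-92328329, minus strand: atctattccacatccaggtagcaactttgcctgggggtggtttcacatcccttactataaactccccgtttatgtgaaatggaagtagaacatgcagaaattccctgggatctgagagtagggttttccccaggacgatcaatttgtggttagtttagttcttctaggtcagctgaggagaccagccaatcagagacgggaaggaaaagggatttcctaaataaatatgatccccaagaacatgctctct
Cxcl10, upstream window at chr5:92348890-92349139, minus strand: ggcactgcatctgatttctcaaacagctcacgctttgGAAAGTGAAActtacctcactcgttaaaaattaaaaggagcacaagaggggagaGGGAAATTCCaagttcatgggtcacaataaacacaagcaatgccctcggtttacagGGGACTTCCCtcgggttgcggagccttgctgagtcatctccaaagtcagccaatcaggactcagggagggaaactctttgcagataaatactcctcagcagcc
Cxcl13, upstream window at chr5:95956689-95956938, plus strand: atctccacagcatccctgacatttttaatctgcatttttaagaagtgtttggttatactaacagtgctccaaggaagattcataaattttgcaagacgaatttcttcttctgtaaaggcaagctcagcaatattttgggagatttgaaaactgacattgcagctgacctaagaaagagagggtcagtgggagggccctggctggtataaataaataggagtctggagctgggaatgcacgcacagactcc
Ccl8, upstream window at chr11:82114935-82115184, plus strand: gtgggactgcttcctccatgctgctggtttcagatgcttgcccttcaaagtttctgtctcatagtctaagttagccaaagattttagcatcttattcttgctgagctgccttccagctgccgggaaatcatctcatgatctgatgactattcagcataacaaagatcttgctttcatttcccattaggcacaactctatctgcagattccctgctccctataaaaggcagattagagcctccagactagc
Only the Cxcl10 window among these 4 held a match to these 3 patterns. It had the interferon element GAAAGTGAAA with its first base at position -213 from the start, and kappa B matches GGGAAATTCC at -159 and GGGACTTCCC at -103. Of all 32851 promoter windows of this length, 2.98% held the interferon element, 7.02% the gamma-activated site and 3.90% the kappa B consensus. RefSeq windows were found for 38 of the 52 genes, 45 windows in all, and 3, 4 and 8 of these genes held each of these motifs in turn. A gene was counted if any of its windows had a match, whereas the percentages above are of windows. Among the 8 with a kappa B match were Cxcl1, Cxcl2 and Cxcl3, which shared the letters GGGAATTTCC at -71, -97 and -73. A match is a description of the letters and not of a bound site. The patterns were fixed and the windows short, so a window without a match may still hold an element of other letters. The lack of a match in Cxcl9, Cxcl13 and Ccl8 therefore does not show that they lack an interferon or kappa B element.

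Of the 4 monocyte-attracting ligands Ccl2, Ccl7, Ccl8 and Ccl12, Ccl8 was called. It was at 0.741, 0.679 and 0.637 CPM in control and 2.19, 1.89 and 1.73 CPM in radiated libraries, and the lowest radiated value lay well above the highest of the controls. The rise was 2.81-fold (log2 fold change 1.49 ± 0.20 SE, adjusted p 0.00211 by edgeR) and was called in each of 14 settings. Ccl2, the main ligand of Ccr2, was at 0.603, 0.639 and 0.165 CPM in control and 1.03, 1.10 and 0.964 CPM in radiated libraries. The groups did not overlap, but control library 3 stood far below the other two, and the difference was not called (log2 fold change 1.20 ± 0.40 SE, adjusted p 0.112 by edgeR). With no filter it was called (adjusted p 0.0458), as it was with library totals (0.00874). Ccl7 did not pass the filter, at 3, 0 and 4 counts in control and 18, 24 and 8 counts in radiated libraries. With no filter it was called higher (log2 fold change 2.42 ± 0.65 SE, adjusted p 0.0235 by edgeR). Ccl12 had 7, 1 and 5 against 6, 15 and 12 counts and was not called without the filter (adjusted p 0.490). Of 10 monocyte and macrophage markers 6 were called, all higher, among them C1qa, C1qb and C1qc. The monocyte marker Ly6c2 was at 156.6, 171.5 and 150.0 CPM in control and 145.6, 135.3 and 115.5 CPM in radiated libraries (log2 fold change -0.27 ± 0.09 SE, adjusted p 0.103 by edgeR). It was called lower with the replicate block (adjusted p 0.0459). The whole list summed to 1184 to 1334 CPM in control and 1449.7 to 1686 CPM in radiated libraries, and its part in the Ccl8 result was not tested.

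Cxcl16, a ligand that exists in a membrane-bound form and binds Cxcr6, was at 5.87, 5.51 and 7.10 CPM in control and 8.93, 9.06 and 9.59 CPM in radiated libraries. The groups did not overlap, with the highest control, library 3, nearest to the radiated values. The rise was 1.49-fold (log2 fold change 0.57 ± 0.12 SE, adjusted p 0.0220 by edgeR). The call was lost without control library 1 (adjusted p 0.0782) or 2 (0.0876), without radiated library 1 (0.0670) or 3 (0.0592), and with library totals (0.0605). Cxcl16 overlaps Zmynd15 on the other strand, which went from a mean of 1.30 to 1.94 CPM. Its log2 fold change was also 0.57, but it was not called (edgeR adjusted p 0.104). Whether the counting used strand is not stated, so reads of Cxcl16 and Zmynd15 may not have been told apart. Cxcr6 had a log2 fold change of 0.51 ± 0.21 (SE), with an adjusted p of 0.203 by edgeR.

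**Figure D3:**
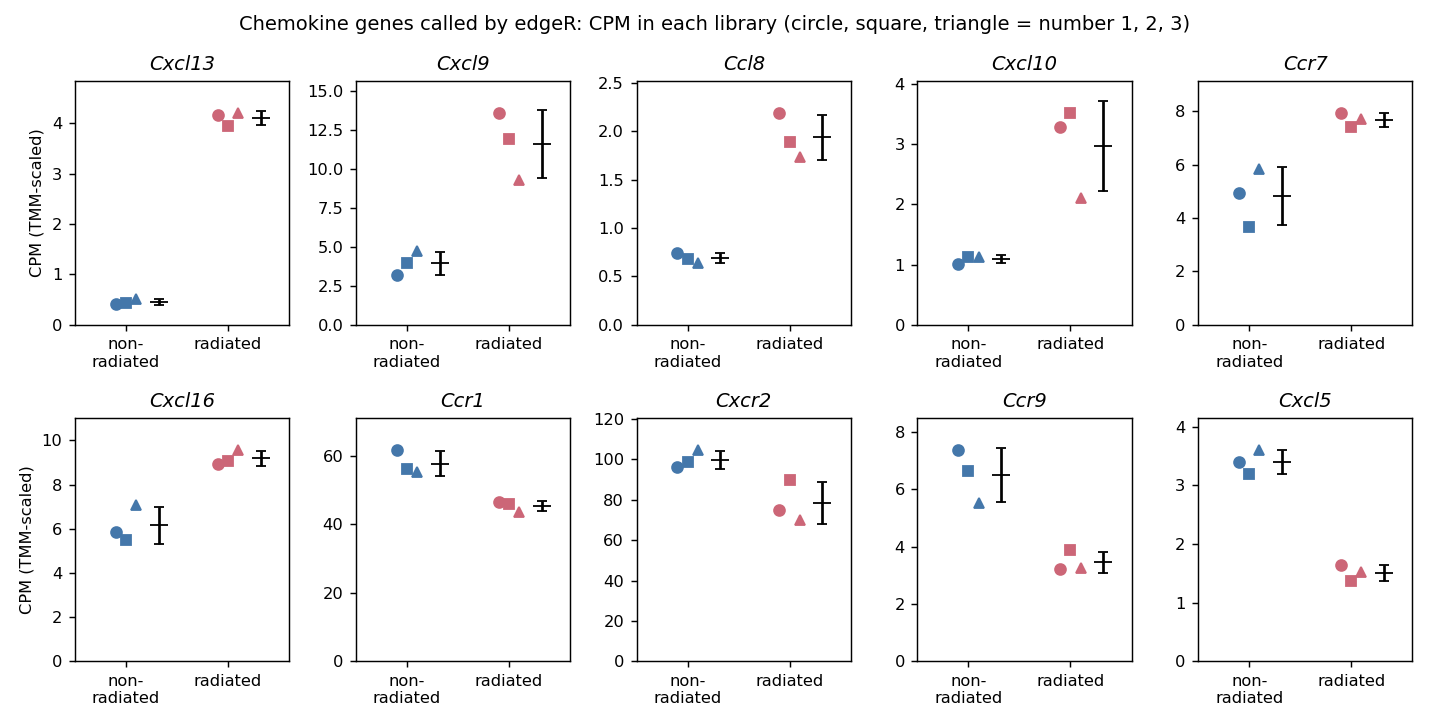
CPM of the 10 called genes in each library (y axes start at 0), with circle, square and triangle for numbers 1, 2 and 3 and the group mean ± SD beside them (n = 3 each). No panel has overlapping groups, and the gap is widest relative to the spread in Cxcl13.

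The ELR motif is typical of neutrophil-attracting ligands that act on Cxcr2. Of the 5 ligands under the symbol rule listed with it, 2 were tested and Cxcl5 was called. It was at 3.40, 3.19 and 3.61 CPM in control and 1.64, 1.37 and 1.52 CPM in radiated libraries. All radiated values were under 1.7 CPM and all controls above 3 CPM, a fall of 1.18 ± 0.15 (SE) in log2 terms, with an adjusted p of 0.00201 by edgeR, called in each of 14 settings. Cxcl1 had 1, 4 and 1 counts in control and 8, 16 and 11 counts in radiated libraries. It did not pass the filter, and with no filter its edgeR adjusted p was 0.0984 (log2 fold change 2.03, SE 0.71). Cxcl2 had 0, 5 and 16 counts against 6, 17 and 12, and was not called (adjusted p 0.844), with log2 fold changes from -0.25 to 1.55 over its settings. For Cxcl3 and Cxcl15 no library had more than 2 counts.

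Cxcr2 was at 96.1, 98.5 and 104.8 CPM in control and 75.0, 89.8 and 69.8 CPM in radiated libraries. Radiated library 2 was nearest to the controls without reaching them. The fall was 0.35 ± 0.09 (SE) in log2 terms, with an adjusted p of 0.0439 by edgeR. It was lost without control library 1 (adjusted p 0.0850), 2 (0.0953) or 3 (0.0973), without radiated library 1 (0.147) or 3 (0.0941), and with library totals (0.765). Cxcr1, the related receptor, had a log2 fold change of -0.50 ± 0.28 (SE), with an adjusted p of 0.355 by edgeR. The 10 neutrophil markers all had negative log2 fold changes. Of these 1, Retnlg, was called, where 7.80% of all genes tested were called. With the replicate block 5 of the 10 markers were called (8.90% of all genes), and by DESeq2's Wald test all 10 (10.3% of all genes). Their sum was 14929 to 19133 CPM in control and 11839.9 to 13857 CPM in radiated libraries, and its part in the Cxcr2 result was not tested.

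Cxcl12 was at 1006, 1050.5 and 1047 CPM in control and 885, 889 and 779 CPM in radiated libraries. The groups did not overlap, with radiated library 3 lowest, and the difference of -0.28 on the log2 scale (SE 0.07) was not called (edgeR adjusted p 0.0515). It was called with DESeq2 size factors (adjusted p 0.0437), with no filter (0.0378), with a mean of at least 1 CPM (0.0451), with DESeq2's Wald test (0.000406) and with limma-voom (0.0264). With library totals the log2 fold change was -0.09. The 5 other stromal markers summed to 273.0 to 305.9 CPM in control and 217.6 to 234.6 CPM in radiated libraries, and 2 of them, Lepr and Pdgfra, were called lower. Cxcr4 was at 157, 159 and 153 CPM in control and 155.5, 169 and 148 CPM in radiated libraries, which overlapped (log2 fold change 0.01 ± 0.06 SE, adjusted p 0.938 by edgeR). Cxcl14, a homeostatic ligand, was at 26.4, 25.4 and 27.1 CPM against 32.8, 29.2 and 27.1 CPM and was not called (log2 fold change 0.17 ± 0.08 SE, adjusted p 0.265 by edgeR).

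Ccl3, Ccl4, Ccl5, Ccl6 and Ccl9 are inflammatory CC ligands grouped here by the receptors they share, and none of them was called by edgeR, where 2 of the 5 had an unadjusted p under 0.05. DESeq2's Wald test called 1 and limma-voom 0. Ccl6, the most abundant CC ligand, was at 80.3, 84.2 and 75.2 CPM in control and 69.0, 71.9 and 60.8 CPM in radiated libraries. These did not overlap, and the log2 fold change was -0.25 ± 0.07 (SE), with an adjusted p of 0.0761 by edgeR. With the replicate number as a block it was called (adjusted p 0.0353). Ccl9 was at 38.3, 31.1 and 31.9 CPM against 36.8, 32.8 and 31.3 CPM, and its log2 fold change of -0.01 ± 0.10 (SE; adjusted p 0.976 by edgeR) changed sign between settings. Ccl5, made by T and NK cells, was at 1.97, 2.20 and 2.48 CPM in control and 3.96, 2.96 and 2.44 CPM in radiated libraries. Radiated library 3 lay within the controls, and the log2 fold change of 0.49 (SE 0.20) had an adjusted p of 0.203. Ccl3 and Ccl4 had log2 fold changes of 0.23 and 0.44 (edgeR adjusted p 0.724 and 0.540).

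Ccr1, the receptor of several of these ligands on monocytes and neutrophils, was at 61.8, 56.2 and 55.1 CPM in control and 46.4, 46.0 and 43.7 CPM in radiated libraries. All controls were above 55 CPM and all radiated libraries under 47 CPM. The fall was 0.35 ± 0.06 (SE) in log2 terms, with an adjusted p of 0.0111 by edgeR, and it was lost with library totals (log2 fold change -0.16, adjusted p 0.770). Ccr2, which brings inflammatory monocytes out of the marrow, was at 156.0, 144 and 131 CPM in control and 150.3, 121 and 119 CPM in radiated libraries. The groups overlapped, with a log2 fold change of -0.14 ± 0.10 (SE), with an adjusted p of 0.461 by edgeR.

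Ccr7, which guides lymphocytes and dendritic cells to lymphoid tissue, was at 4.94, 3.67 and 5.83 CPM in control and 7.95, 7.42 and 7.71 CPM in radiated libraries. The radiated libraries were close together and above each control. The rise was 1.59-fold (log2 fold change 0.67 ± 0.16 SE, adjusted p 0.0374 by edgeR). It was lost when any library but control library 3 was left out, with adjusted p of 0.10 and 0.0844 without control libraries 1 and 2, and 0.117, 0.0629 and 0.0730 without radiated libraries 1, 2 and 3. Its ligand Ccl19 had 8, 8 and 10 counts in control and 12, 29 and 3 counts in radiated libraries and was under the filter. The other ligand, Ccl21a, had 9, 0 and 0 counts against 19, 59 and 13 counts (log2 fold change 2.86 ± 0.91 SE, adjusted p 0.0972 by edgeR). It was called in 3 of 13 settings, with no filter (adjusted p 0.0149), with library totals (2.45e-06) and without control library 1 (0.0403), where both remaining controls were at 0 counts and the fitted log2 value of 7.72 is no bound. In its other settings the log2 fold change ran from 2.14, without radiated library 2, to 3.87 with limma-voom. It has near-identical copies, among them Ccl21b, and its counts are uncertain.

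Ccr9, a receptor of gut- and thymus-homing cells that binds Ccl25, was at 7.38, 6.63 and 5.50 CPM in control and 3.22, 3.88 and 3.27 CPM in radiated libraries. The groups were well apart, and the fall was 0.91 ± 0.15 (SE) in log2 terms, with an adjusted p of 0.00684 by edgeR. It was lost with library totals (adjusted p 0.121). Ccr9 overlaps 6 other genes in the table, none of them called, so part of its reads is uncertain. Ccl25 had a log2 fold change of 0.08 ± 0.13 (SE), with an adjusted p of 0.785 by edgeR.

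Ccr3, the eosinophil receptor, was at 35.3, 29.5 and 22.8 CPM in control and 28.0, 28.3 and 27.1 CPM in radiated libraries, where all radiated values lay within the range of the controls (log2 fold change -0.07 ± 0.13 SE, adjusted p 0.823 by edgeR). Of 4 eosinophil markers, Epx and Prg2 were called lower (log2 fold changes -0.55 and -0.72, adjusted p 0.0105 and 0.0201). Of the ligands of Ccr3, Ccl11 had 0, 0 and 2 counts in control and 5, 52 and 3 counts in radiated libraries, and Ccl24 had 6, 2 and 5 against 11, 38 and 7. With no filter Ccl11 was called higher (log2 fold change 4.22, edgeR adjusted p 0.0166). Both were highest in radiated library 2, and Ccl26 had no count in any library. Skeletal muscle markers were also highest there, with a summed level of 1879 CPM against 621 and 152 CPM in radiated libraries 1 and 3 and 133 to 272.5 CPM in the controls. None of the 8 muscle markers was called by edgeR, DESeq2's Wald test or limma-voom, all 8 had an unadjusted p under 0.05 in edgeR, and 6 were called higher with the replicate block. Their part in the values of Ccl11, Ccl24 and Ccl21a was not tested. Without radiated library 2, 9 chemokine genes were called in place of 10, with Ccr7 the one that was lost.

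The remaining genes gave no call in the main test. Ccl22 and Ccl27a had log2 fold changes of 0.33 and 0.14 (edgeR adjusted p 0.672 and 0.819), and Ccr6 and Ccr1l1 of 0.30 and -0.28 (0.434 and 0.740). Ccl1, Ccl17, Ccl20, Ccl21b and Ccl28 and the receptors Ccr4, Ccr8 and Ccr10 were under the filter, with at most 13 counts in a library. Ccl27b and Ccl26 had 0 counts in all 6 libraries, which allows up to 3 counts or 0.0562 to 0.120 CPM per library, for counting error only. Cxcl17 had 1 count in all.

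Other genes of the chemokine system were read from lists. Of 11 chemokine family genes outside the symbol rule 5 were called, 2 higher and 3 lower, where 7.80% of all genes tested were called. Pf4 and Ppbp, chemokines stored in platelet granules, fell, with log2 fold changes of -1.41 and -1.58 (SE 0.08 and 0.09, edgeR adjusted p 1.43e-05 and 1.53e-05). Their level went from 119.5 to 133 CPM down to 42.0 to 50.0 CPM for Pf4, and from 415 to 474 CPM down to 136 to 170.1 CPM for Ppbp. The 6 megakaryocyte markers were all called lower, from a sum of 428 to 448.5 CPM to 160.7 to 183 CPM, and their part in this was not tested. Cx3cl1, which is tethered to endothelium, rose from 2.55, 2.64 and 2.83 CPM to 5.36, 4.40 and 4.21 CPM (log2 fold change 0.80 ± 0.15 SE, adjusted p 0.0106 by edgeR). Xcr1, a dendritic cell receptor, rose by 1.46 on the log2 scale (SE 0.34, adjusted p 0.0328), a call lost with the replicate block (adjusted p 0.0501), with DESeq2's Wald test (0.131) and on leaving out any one library (0.0567 to 0.124). The atypical receptor Ackr1 fell by 0.31 on the log2 scale (SE 0.08, adjusted p 0.0396), a call lost with library totals (0.830) and on leaving out any library but radiated library 2 (0.0653 to 0.155).

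Of 24 genes that carry or limit the receptor signal 2 were called, both higher. This is 8.33%, near the 7.80% called over all genes tested. Rgs16, which ends G protein signalling, went from 0.603, 0.439 and 0.755 CPM to 2.22, 1.63 and 1.95 CPM (log2 fold change 1.65 ± 0.24 SE, adjusted p 0.00364 by edgeR). Dpp4, a protease that trims Cxcl12, Cxcl10 and other chemokines, went from 42.2, 37.0 and 38.3 CPM to 59.4, 56.9 and 68.8 CPM (log2 fold change 0.66 ± 0.08 SE, adjusted p 0.00198 by edgeR). The list's median log2 fold change was 0.00. Of 8 tested interferon genes that drive chemokines 1 was called (12.5%), Ifngr2, with a log2 fold change of 0.22 (SE 0.06, adjusted p 0.0488 by edgeR). It was called in 3 of 14 settings, and not with the block (0.0682) or on leaving out any library (0.0704 to 0.216). Irf1, a transcription factor of this route, had a log2 fold change of 0.17 (adjusted p 0.154). Of 12 tested genes of the NF-kappa B route 1 was called (8.33%), the cytokine Il1a, which fell by 0.63 on the log2 scale (SE 0.13, adjusted p 0.0189 by edgeR). That call was lost without control library 1 (0.0553) or 2 (0.0705), radiated library 1 (0.0586) or 2 (0.0641), and with library totals (0.572). With the block 4 of the 12 were called, where 8.90% of all genes tested were called. These were Nfkb2 and Relb, higher, and Il1a and Il1b, lower (edgeR adjusted p 0.0386, 0.0479, 0.0293 and 0.0269).

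Some marker lists of cell types not set beside a gene above also differed between the legs, where 7.80% of all genes tested were called. All 6 adipocyte markers were called higher, from a sum of 24.1 to 27.1 CPM in control to 93.0 to 142.6 CPM in radiated libraries. Of 7 osteoblast and osteocyte markers Col1a1 and Phex were called lower, with sums of 4495 to 6821 CPM in control and 3335 to 4216 CPM in radiated libraries. Most of each sum was Col1a1 alone, at 4079 to 6185 CPM in control and 2984 to 3767 CPM in radiated libraries. Of 6 endothelial markers Tek was called lower, while the sums were 361 to 379.5 CPM and 373 to 410.0 CPM. The 5 osteoclast and 6 erythroid markers gave no call by edgeR, with 0 and 1 of them at an unadjusted p under 0.05, and DESeq2's Wald test called 0 and 1. Their part in the chemokine values was not tested.

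**Figure D4:**
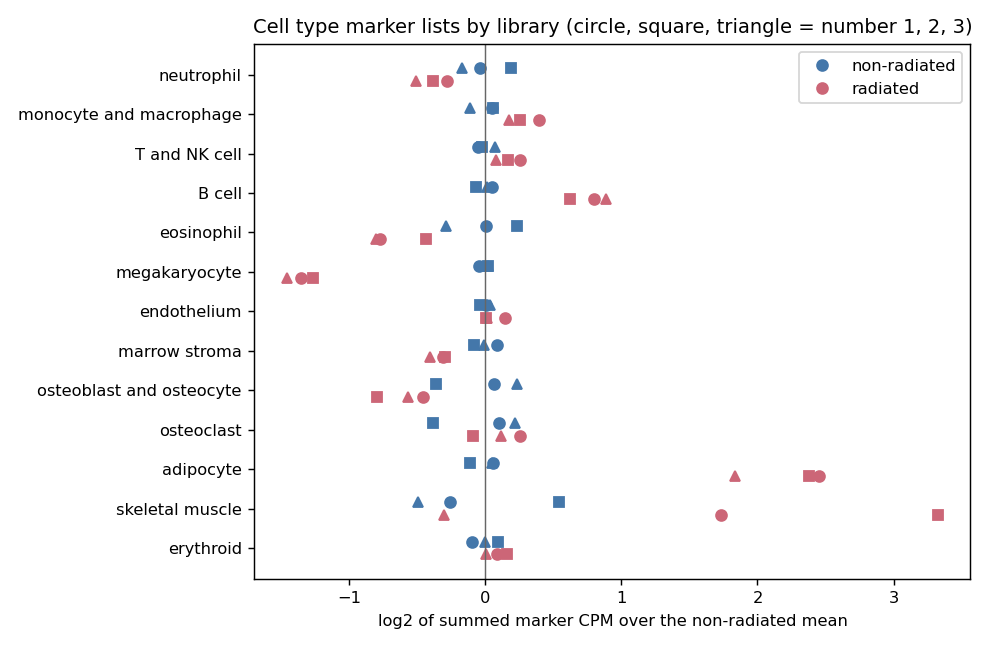
Summed CPM of each cell type marker list in each library as a log2 ratio to the control mean (x axis), with circle, square and triangle for numbers 1, 2 and 3. In all radiated libraries the B cell, adipocyte, monocyte and macrophage lists lie to the right of every control, and the T and NK cell list narrowly so. The megakaryocyte, neutrophil, eosinophil, marrow stroma, and osteoblast and osteocyte lists lie to the left of every control. The skeletal muscle list spreads from 152 to 1879 CPM within the radiated group.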

How the data were processed

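The authors deposited raw counts and RPKM for 43346 genes in 6 mouse femur libraries, per the file headers. The submitters' processing notes name bcl2fastq, STAR 2.5.2b, Subread, featureCounts and build mm10, without roles. Which annotation was counted, with what filters and whether by strand, is not given in the sources used here. The deposited counts were used for all tests. The deposited RPKM values, scaled by the authors, were not used. All 52 gene IDs were found in GENCODE, and 34 had the same start and end there.

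Groups came from the labels. Low genes were removed by filterByExpr (at least 10 counts, total of 15), and the rest were scaled by TMM and tested for group alone with edgeR 4.0.16 in R 4.3.3 (glmQLFit, glmQLFTest). Benjamini-Hochberg adjustment ran over 18757 genes. The SE is the log2 fold change over the square root of F. Levels between genes were compared as CPM per kilobase of the deposited gene length. Replicates differed by more than sampling noise (chi-square per degree of freedom 16.6 to 580). On simulated counts 96.0% of genes changed 2-fold and 100% of genes changed 4-fold were called, and 9 of 18652 unchanged ones. These counts gave every gene the same common dispersion (biological coefficient of variation 12.9%). The shares called therefore do not hold for genes with a wider spread, and are not the power for the chemokine genes.

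Deviations from group means correlated at 0.166, 0.277 and 0.187 between libraries of the same number (across genes). Between control and radiated libraries of different numbers the correlations ran from -0.17 to -0.00824. The labels do not state that a number marks a mouse. The numbers were used as pairs in the block fit alone, and the main p-values ignore any pairing. Alternatives were the replicate number as a block, DESeq2 1.42.0 size factors and Wald test, limma-voom (limma 3.58.1), library totals, other filters and leaving out each library. Values in each library are given for called genes, for the 4 ligands and 4 receptors of highest level not called, and for the ligand and receptor sets of Cxcl12, Cxcl9 to Cxcl11, Cxcl5, Ccl2 and Ccl5. Ccl7, Cxcl1, Ccl11, Ccl24, Ccl21a, Ccl19, Cxcl2 and Ccl12 are given as counts and, like the genes of other lists named though not called, were picked after their values were seen. In other lists up to 6 called genes of smallest p are named. The genes and lists were chosen with earlier results of these data known. The values of 1 chemokine receptor and of 1 gene of another list enter the counts and are not reported here.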

Additional observations from a re-analysis of the deposited data

How the results depend on the processing

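The count of 10 called chemokine genes was 11 with the replicate block, with 7 ligands and 4 receptors, and the block changed the calls of Ccl6, Xcr1 and Ifngr2 and, in other lists, of Nfkb2, Relb, Il1b and some cell type markers. With no filter on low counts 17 chemokine genes and 12 ligands were called, against 10 and 6. Of the 7 added calls, 5 were of genes already tested with the filter, and Ccl7 and Ccl11 entered the test. With library totals 1 receptor was called, against 4, and the split was 7 higher to 1 lower, against 6 to 4, where 5.33% of all genes were called. Leaving out 1 library gave 7 to 9 called chemokine genes, 5 to 6 ligands and 2 to 3 receptors, where 3.99% to 7.25% of all genes were called, against 7.80%. The receptor count was 2 when control library 1 or 2, or radiated library 1 or 3, was left out. Signs changed in some genes that were not called. Ccl9 was at 0.17 with library totals and at 0.09, 0.01 and 0.04 without control library 1, radiated library 2 and radiated library 3. Ccr2 was at 0.04 and Ccr3 at 0.12 with library totals, and Ccr3 at 0.09 without control library 1. Cxcr4 was at -0.01 without control library 3 and at -0.04 without radiated library 2. On leaving out 1 library these genes ranged from -0.08 to 0.09 (Ccl9), -0.04 to 0.06 (Cxcr4) and -0.23 to 0.09 (Ccr3). Over all settings the sign also changed for Cxcl2 (-0.25 to 1.55), Ccl3 (-0.02 to 0.45), Ccl27a (-0.06 to 0.36) and Ccr1l1 (-0.66 to 0.04). Of 388 log2 fold changes of named genes under alternatives, 319 kept their direction and their side of the threshold. The cause of these shifts was not tested. Depth limits the 19 genes that did not pass the filter, whose highest count in a library was 52.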

Other observations

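The gene Cxcl5 stands first in a stretch of chromosome 5 (chr5:90759299-90905909 from the start of Cxcl5 to the end of Cxcl2) that holds 7 protein-coding genes, all chemokines, in the order Cxcl5, Ppbp, Pf4, Cxcl3, Cxcl15, Cxcl1 and Cxcl2. Of the 4 that were tested, the 3 at one end were called lower, with log2 fold changes of -1.18 for Cxcl5, -1.58 for Ppbp and -1.41 for Pf4 (edgeR adjusted p 0.00201, 1.53e-05 and 1.43e-05). Cxcl2, at the other end, was not called (log2 fold change 0.35, adjusted p 0.844, and from -0.25 to 1.55 over its settings). Cxcl1 next to it was under the filter, with more counts in each radiated library (8, 16 and 11) than in the controls (1, 4 and 1). The 6 megakaryocyte markers were all called lower as well, at a median of -1.43 on the log2 scale, and summed to 428 to 448.5 CPM in control and 160.7 to 183 CPM in radiated libraries, and their part in the values of Cxcl5, Ppbp and Pf4 was not tested. This stretch was picked after its values were seen.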
